A study of Rattus norvegicus with 39 samples.

Results

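Cacna1e and Cacng5 encode subunits of voltage-dependent calcium channels and were followed as 2 of the 23978 genes in the count table, by the identifiers ENSRNOG00000002863 for Cacna1e and ENSRNOG00000003288 for Cacng5. They were chosen by gene identity, with earlier results of these data known. Cacna1e encodes the pore-forming subunit of the R-type calcium channel, which opens on depolarization and lets calcium into dendrites, spines and presynaptic terminals. Cacng5 encodes the gamma-5 subunit, which was named for its kinship with a calcium channel subunit of skeletal muscle but also acts as a transmembrane AMPA receptor regulatory protein, an auxiliary subunit that modifies the gating and trafficking of AMPA-type glutamate receptors. The first protein thus lets calcium in, and the second acts on glutamate receptors. Neither protein was measured here in medium spiny neurons (MSNs), the projection neurons of the nucleus accumbens (NAc).

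The libraries hold ribosome-bound mRNA of NAc neurons from adult female Long Evans rats that were heterozygous for a Cre transgene under the dopamine receptor gene Drd1a (D1-Cre) or Drd2 (D2-Cre). Every rat, controls included, carried Cre and received a Cre-dependent AAV9 vector in the NAc that tags the ribosomal protein Rpl22 with hemagglutinin, so that tagged polyribosomes of D1- or D2-neurons could be pulled down from bilateral 2 mm punches of 1 rat per library. The drug was given as 6 injections of 10 mg/kg ketamine, or saline in its place, each timed to proestrus or to diestrus, and tissue was taken 4 days after the last injection and 30 min after the rat was returned to the test chamber. Per the study's methods, ketamine rats were used only if their locomotor activity had risen past a set limit over the treatment. No such rule is stated for saline rats, so ketamine comparisons set selected responders against controls. Crossing cell type, cycle stage and treatment gave 8 groups of 5 libraries, except D2 proestrus ketamine with 4 analysed here.

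Total counts ran from 2396517 to 43224256 with a median of 20494896, and the library numbered 39, from D2 diestrus saline, was the shallow one, since the next lowest total was 16118050. At these depths Cacna1e had between 55 and 1096 counts per library and Cacng5 between 24 and 403. No library of a group had counts identical to another, and all 76 pairs of libraries within groups differed by more than sampling noise (chi-square per degree of freedom of at least 2.76). Library 33 of D1 proestrus saline stood apart, at 156 to 201 against the others of its group. No other pair was above 59.1. Adora2a, the adenosine receptor gene that marks D2 neurons, matched the labels, at 177 ± 22.8 CPM (counts scaled to a common library size) in D1 saline libraries and 923 ± 104 CPM in D2 saline libraries (SD, n = 10 each). Of the 44 marker genes and 41 channel and receptor genes listed for this work, 11 and 4 could be paired with an identifier. Of the paired markers of medium spiny neurons, Gad1, a GABA-synthesizing enzyme gene, differed by -0.11 (adjusted p = 0.0591) and Rgs9, a regulator of G-protein signalling, by 0.23 (adjusted p = 0.00176) between D2 and D1 saline libraries on the log2 scale. Drd1 and Drd2 were not paired and were not analysed here.

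Cacna1e was detected in every library, with levels, given as CPM scaled by TMM over all 39 libraries, between 8.44 and 31.1. In D1 proestrus saline the 5 libraries had 10.5, 15.5, 20.4, 28.9 and 29.8 CPM. In D1 proestrus ketamine they had 14.4, 15.8, 19.2, 23.2 and 25.9 CPM. In the first of these groups the highest library had 2.85 times the level of the lowest, and the second group lay wholly within its range. The D1 diestrus saline libraries had 12.2, 13.9, 21.5, 22.7 and 22.8 CPM, which left a gap between a low pair and 3 higher libraries. The D1 diestrus ketamine libraries had 10.8, 13.2, 15.8, 19.9 and 24.2 CPM, spread evenly and reaching past both ends of the saline range. Among D2 libraries the proestrus saline group had 18.2, 22.6, 23.6, 29.7 and 31.1 CPM. It held the highest library of all, and its lowest library was above the lowest of every other group. The 4 libraries of D2 proestrus ketamine had 10.0, 19.1, 21.3 and 25.6 CPM. D2 diestrus saline libraries had 13.1, 17.5, 20.1, 22.8 and 28.9 CPM, and those of D2 diestrus ketamine had 8.44, 12.9, 15.1, 19.1 and 30.6 CPM. This last group held the lowest library of all and, in 1 library, a level close to the highest.

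Ordered by mean, Cacna1e went from 25.0 ± 5.33 CPM in D2 proestrus saline through D1 proestrus saline (21.0 ± 8.40), D2 diestrus saline (20.5 ± 5.91), D1 proestrus ketamine (19.7 ± 4.86), D2 proestrus ketamine (19.0 ± 6.59), D1 diestrus saline (18.6 ± 5.16) and D2 diestrus ketamine (17.2 ± 8.41) to D1 diestrus ketamine (16.8 ± 5.32), as mean ± SD with n = 5, or n = 4 in D2 proestrus ketamine. All 7 steps between neighbours in this order were smaller than the smaller SD of the 2 groups. The largest of them was 4.04 CPM. The highest group mean was 1.49 times the lowest, while single libraries of 1 group differed by up to 3.63 times.

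Cacng5 was also detected in every library, between 3.68 and 14.4 CPM. In D1 proestrus saline its libraries had 3.68, 8.14, 8.53, 10.8 and 12.4 CPM. In D1 proestrus ketamine they had 6.14, 6.19, 6.40, 10.8 and 13.6 CPM, 3 libraries close together and 2 well above them. The D1 diestrus groups were narrower, with 5.91, 6.99, 8.08, 8.80 and 9.93 CPM after saline. After ketamine they had 5.63, 7.65, 7.76, 9.21 and 9.68 CPM, nearly the same range. D2 proestrus saline libraries had 6.74, 9.43, 9.89, 11.5 and 14.4 CPM, the last being the highest level of the series. D2 proestrus ketamine libraries had 8.00, 9.43, 9.56 and 12.0 CPM, which made it the group with the highest minimum. D2 diestrus saline libraries had 4.86, 7.16, 9.94, 10.0 and 10.2 CPM. D2 diestrus ketamine libraries had 4.24, 4.49, 5.93, 7.50 and 8.47 CPM, and the upper end of this group only just passed the lowest library of D2 proestrus ketamine.

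By mean, Cacng5 went from 10.4 ± 2.82 CPM in D2 proestrus saline through D2 proestrus ketamine (9.74 ± 1.64), D1 proestrus saline (8.71 ± 3.30), D1 proestrus ketamine (8.62 ± 3.41), D2 diestrus saline (8.43 ± 2.36), D1 diestrus ketamine (7.99 ± 1.59) and D1 diestrus saline (7.94 ± 1.56) to D2 diestrus ketamine (6.13 ± 1.85). The 4 proestrus means thus stood above the 4 diestrus means. Of the 7 steps between neighbours, 6 were smaller than the smaller SD. The exception was the last, of 1.81 CPM, which exceeded the SD of D1 diestrus saline but not that of D2 diestrus ketamine. CPM are not corrected for transcript length, so the levels of the genes were not compared with each other.

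**Figure D1:**
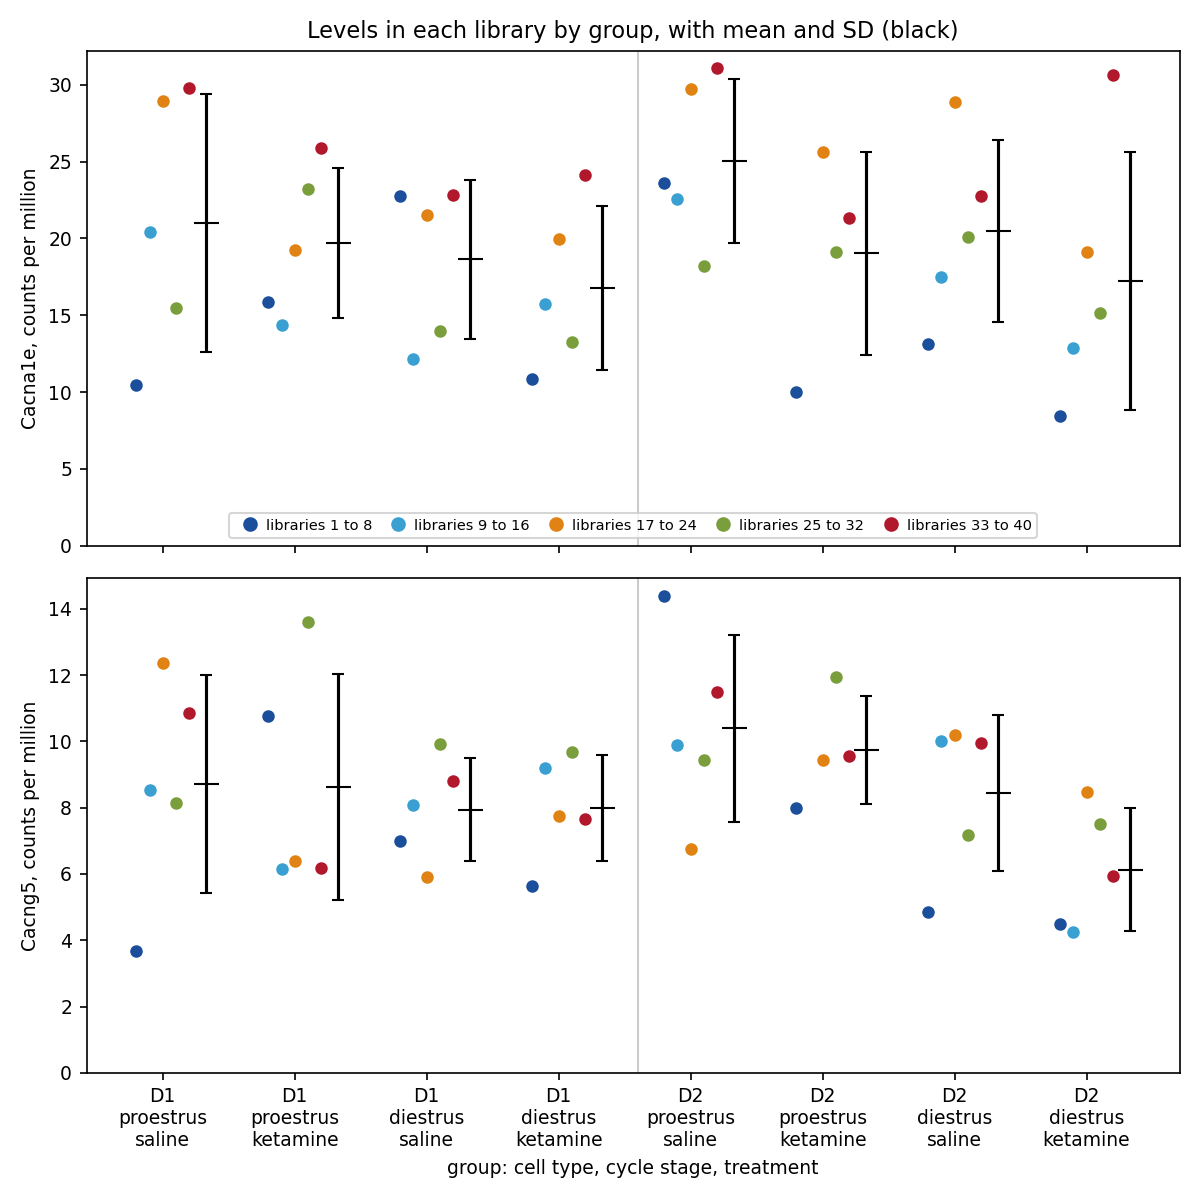
Levels of Cacna1e (top) and Cacng5 (bottom) in CPM, 1 point per library, in the 8 groups; colours mark the 5 blocks of consecutive library numbers, and black bars give the group mean and SD. The groups overlap in both genes, and in Cacna1e the points of libraries 33 to 40 (red) tend to lie above those of libraries 1 to 8 (dark blue).

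Whether either subunit is biased towards D1- or D2-MSNs was first asked in the 20 saline libraries. Neither Cacna1e nor Cacng5 passed the test between the cell types there, in a comparison where 28.8% of 13689 genes passed the threshold of 0.1 on the adjusted p of edgeR's quasi-likelihood test (Benjamini-Hochberg adjustment over all genes tested). The log2 fold change of D2 over D1 was 0.19 for Cacna1e (standard error 0.189, 95% interval -0.21 to 0.59, adjusted p = 0.523). For Cacng5 it was 0.15 (standard error 0.159, 95% interval -0.18 to 0.48, adjusted p = 0.556). The upper bounds leave room for a D2 bias of up to 0.59 on the log2 scale in Cacna1e, so the data do not show equal levels. Without library 33 the Cacna1e value was 0.34 (standard error 0.180, adjusted p = 0.199). It ran from 0.11 to 0.35 with each saline library left out in turn. Over all 39 libraries, where 34.5% of genes passed, the values were 0.04 for Cacna1e (95% interval -0.22 to 0.30, adjusted p = 0.862) and 0.02 for Cacng5 (95% interval -0.25 to 0.30, adjusted p = 0.935). The Cacng5 value in saline libraries turned on 1 library at a time. The fitted value was 0.43 (adjusted p = 0.0747) without library 39 and 0.35 (adjusted p = 0.0992) without library 27 of D1 diestrus saline, both past the threshold. It fell to 0.05 without library 5 of D2 proestrus saline.

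Split by stage and treatment, the difference of D2 over D1 was largest in proestrus saline for both subunits without passing the threshold, where 5.41% of genes did. Cacng5 had a fitted log2 difference of 0.55 there (standard error 0.217, unadjusted p = 0.0263, adjusted p = 0.228). Cacna1e had 0.52 (standard error 0.317, adjusted p = 0.477). These values depended on the 2 surrogate variables of the fit, which stand for unknown differences between libraries. The plain difference of mean log2 levels was 0.32 for Cacna1e and 0.30 for Cacng5, with 2-sided exact permutation p-values of 0.349 and 0.437, and a single model of all 39 libraries put Cacna1e at -0.01. In diestrus saline (4.11% of genes called) Cacna1e had 0.39 (adjusted p = 0.652) and Cacng5 0.28 (adjusted p = 0.677). These also depended on the surrogate variables, since the plain differences of mean log2 levels were 0.13 and 0.05, the fits with blocks of library numbers in place of surrogate variables gave 0.15 and 0.05, and the single model put Cacna1e at -0.15. In proestrus ketamine (5.61% called) the values were 0.04 (adjusted p = 0.972) and 0.11 (adjusted p = 0.907). In diestrus ketamine (12.8% called) Cacna1e had 0.04 (adjusted p = 0.945), whereas Cacng5 stood lower in D2 libraries, at -0.38 (standard error 0.209, adjusted p = 0.334). Without 1 library some of these passed the threshold, namely Cacna1e in proestrus ketamine without library 26 (0.30, adjusted p = 0.0822), Cacng5 in proestrus ketamine without library 22 (0.40, adjusted p = 0.0865) and Cacng5 in diestrus ketamine without library 32 (-0.50, adjusted p = 0.0918).

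Whether repeated ketamine left either subunit higher or lower was asked in each cell type and stage against saline given at the same stage. Neither gene passed the threshold in any of the 4 comparisons, and few genes of the table did (0.00759% in D1 proestrus and 0.0227% in D1 diestrus, 0% in both D2 comparisons, where 457 and 355 genes had an unadjusted p under 0.05 and DESeq2 called 1 and 0). In D1 libraries Cacna1e differed by 0.02 on the log2 scale in proestrus (95% interval -0.16 to 0.20) and by -0.14 in diestrus (95% interval -0.45 to 0.17). Cacng5 differed by 0.10 (95% interval -0.30 to 0.50) and by -0.02 (95% interval -0.32 to 0.29). The narrow proestrus interval of Cacna1e depended on the surrogate variables, with a standard error of 0.08 with them and 0.28 without. In D2 libraries the fitted values were below 0 in both genes and stages. Cacna1e differed by -0.38 in proestrus (standard error 0.240, 95% interval -0.94 to 0.19) and -0.04 in diestrus (standard error 0.352, 95% interval -0.86 to 0.79). Cacng5 differed by -0.30 in proestrus (standard error 0.152, 95% interval -0.63 to 0.03) and -0.41 in diestrus (standard error 0.288, 95% interval -1.05 to 0.23). The proestrus value of Cacng5 shrank without surrogate variables, to -0.06 as a plain difference of mean log2 levels and -0.07 with blocks, and 2 of 4 pairs of libraries within blocks ran each way. The diestrus value of Cacna1e grew, to -0.32 as a plain difference. All of these adjusted p-values were above 0.95, and the exact permutation p-values of the 8 comparisons ran from 0.159 to 1. Leaving out library 40, the D2 diestrus ketamine library with 30.6 CPM of Cacna1e, moved the Cacna1e value of that comparison from -0.04 to -0.57, and leaving out library 23 of D2 diestrus saline moved it to 0.16.

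The cycle stage was compared within each cell type and treatment. Cacng5 had its largest difference of the whole design here, between proestrus and diestrus in D2 libraries after ketamine. The 4 proestrus libraries averaged 9.74 CPM against 6.13 CPM in the 5 diestrus libraries, a fitted log2 difference of 0.68 (standard error 0.236, 95% interval 0.15 to 1.20, unadjusted p = 0.0160). The groups overlapped by 1 library at each end, 8.00 CPM in proestrus and 8.47 CPM in diestrus. The 2-sided exact permutation p was 0.0397, against a smallest possible 0.0159, and 0.476 after Benjamini-Hochberg adjustment over the 12 two-group comparisons of Cacng5. In the fit across all genes the adjusted p was 0.998, and 0% of 13595 genes were called with edgeR and 4 with DESeq2, 469 having an unadjusted p under 0.05. It stood between 0.51 and 0.93 when each library was left out, and between 0.58 and 0.68 under 9 other settings. Cacna1e differed by 0.02 in the same libraries (95% interval -0.74 to 0.78). After saline, D2 libraries of proestrus stood higher by 0.30 in Cacng5 (standard error 0.153) and by 0.32 in Cacna1e (standard error 0.228), both with an adjusted p of 0.987. In D1 libraries Cacng5 differed by -0.10 after saline and 0.10 after ketamine. Cacna1e differed by -0.05 and 0.24, and every adjusted p was above 0.99.

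Since the 4 proestrus means of Cacng5 all stood above the diestrus means, the stages were also compared over all libraries of both cell types, with cell type and treatment as covariates, a comparison added after these values were seen. Cacng5 was 0.31 higher in proestrus (standard error 0.135, 95% interval 0.03 to 0.58, unadjusted p = 0.0298, adjusted p = 0.614, 0.00708% of genes called). Cacna1e was 0.26 higher (standard error 0.148, 95% interval -0.04 to 0.56, adjusted p = 0.636). Within D2 libraries alone Cacng5 had 0.51 (standard error 0.165, unadjusted p = 0.00619, adjusted p = 0.614). There 0% of 13881 genes were called, and 1091 (7.86%) had an unadjusted p under 0.05. Within D1 libraries, where 0.00736% of genes were called, Cacng5 had 0.04 (standard error 0.133, adjusted p = 0.999). The same addition for ketamine against saline gave -0.16 for Cacna1e (95% interval -0.46 to 0.14) and -0.13 for Cacng5 (95% interval -0.41 to 0.15) over all libraries, both with an adjusted p of 1. With blocks in place of surrogate variables the Cacna1e value was -0.26 (95% interval -0.46 to -0.06, unadjusted p = 0.0124, adjusted p = 0.924).

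Whether any of these differences depended on another factor was tested by 6 interactions, with no call for either gene and 0% of genes called in each (edgeR, with 243 to 668 genes at an unadjusted p under 0.05, and 0 to 6 called by DESeq2). The interaction with the lowest unadjusted p was that of cell type with cycle in ketamine libraries for Cacng5, at 0.67 (standard error 0.373, 95% interval -0.12 to 1.46, unadjusted p = 0.0915, adjusted p = 0.997). For Cacna1e the largest estimate was that of ketamine with cell type in proestrus, at -0.41 (standard error 0.479, 95% interval -1.44 to 0.62, adjusted p = 0.999). Over all 20 contrasts, Cacna1e had 0 calls with edgeR and none with an unadjusted p under 0.05, and Cacng5 had 0 calls and 2 with an unadjusted p under 0.05. DESeq2 with 2 surrogate variables also called 0 for both genes, with no adjusted p for ketamine against saline in D1 diestrus, and 0 and 3 had an unadjusted p under 0.05.

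**Figure D2:**
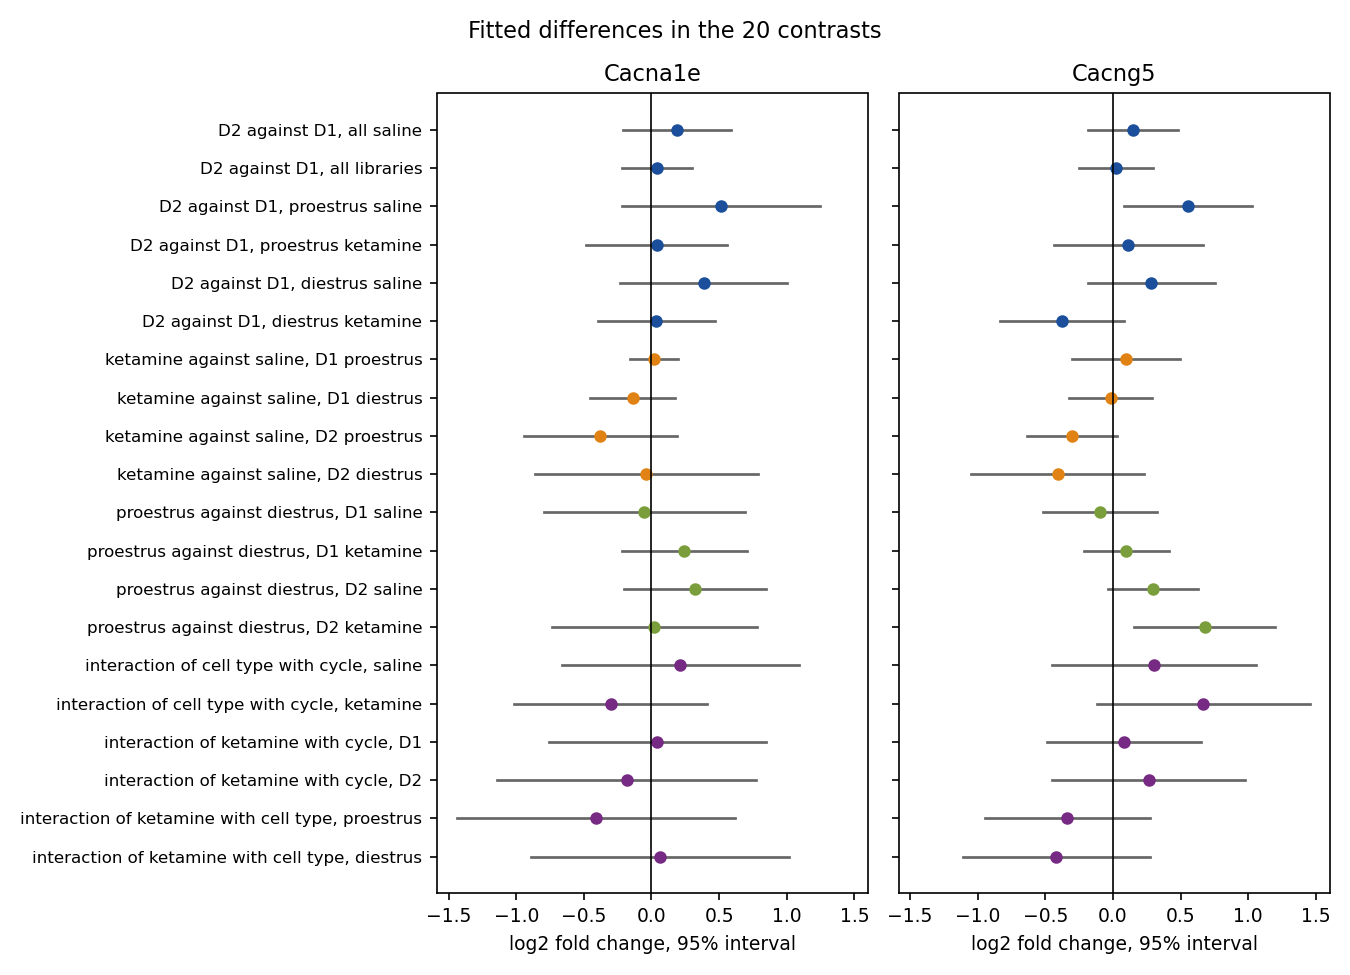
Fitted log2 fold changes (points) with 95% intervals (lines) of Cacna1e and Cacng5 in the 20 contrasts: D2 against D1 (blue), ketamine against saline (orange), proestrus against diestrus (green) and interactions (purple). The intervals of Cacna1e all cover 0, and those of Cacng5 leave out 0 in 2 contrasts, D2 against D1 in proestrus saline (0.55) and proestrus against diestrus in D2 ketamine (0.68).

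The spread between libraries of a group was wide for both subunits. The biological coefficient of variation was 32.5% for Cacna1e, against a median of 9.46% among the 500 genes closest to it in abundance, and 98.4% of these genes varied less. For Cacng5 it was 27.8%, against a median of 13.3%, and 94.8% of such genes varied less. A wide spread was not particular to them, since Adora2a had 15.8% against a median of 7.13%, with 95.2% of such genes varying less. Group membership took up 15.3% of the variance of log2 levels in Cacna1e and 22.7% in Cacng5. Fitting 8 group means to 39 libraries takes up some variance under any labels, and that share was not estimated. Neither share is therefore read as an effect of the groups.

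Much of the spread of Cacna1e followed the numbers that the labels give the libraries. These numbers run through the 8 groups in turn, so that each block of 8 consecutive numbers holds 1 library of each group, and block 2 lacks 1. Libraries 1 to 8 averaged 14.4 ± 5.87 CPM of Cacna1e (SD, n = 8), libraries 9 to 16 averaged 16.5 ± 3.88 (n = 7), and libraries 25 to 32 averaged 17.3 ± 3.45 (n = 8). Libraries 17 to 24 averaged 24.1 ± 4.68 CPM, and libraries 33 to 40 averaged 26.1 ± 3.92 CPM (n = 8 each). No library had less than 19.1 CPM in the first of these higher blocks or less than 21.3 CPM in the second, whereas the lowest of libraries 1 to 8 had 8.44 CPM. A test of the 5 blocks beside the 8 group means, added after these levels were seen, gave an adjusted p of 0.000844 for Cacna1e (edgeR, F = 12.0), where 9.65% of 14129 genes were called. Removing block means left 36.0% of the variance that group means did not take up. The call held without any 1 library (adjusted p between 6.69e-06 and 0.00286) and without any 1 block (between 0.00152 and 0.0679, the highest without libraries 33 to 40). What the blocks stand for is not given in the sources used here.

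Cacng5 did not pass the same test (adjusted p = 0.692, F = 1.19). Its block means ran from 7.35 ± 3.64 CPM in libraries 1 to 8 to 9.68 ± 2.21 CPM in libraries 25 to 32, and 82.6% of the variance within groups was left after block means were removed. Fitting block means also takes up some variance under any labels, in both genes, and that share was not estimated. The difference between the genes in this respect was not tested.

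**Figure D3:**
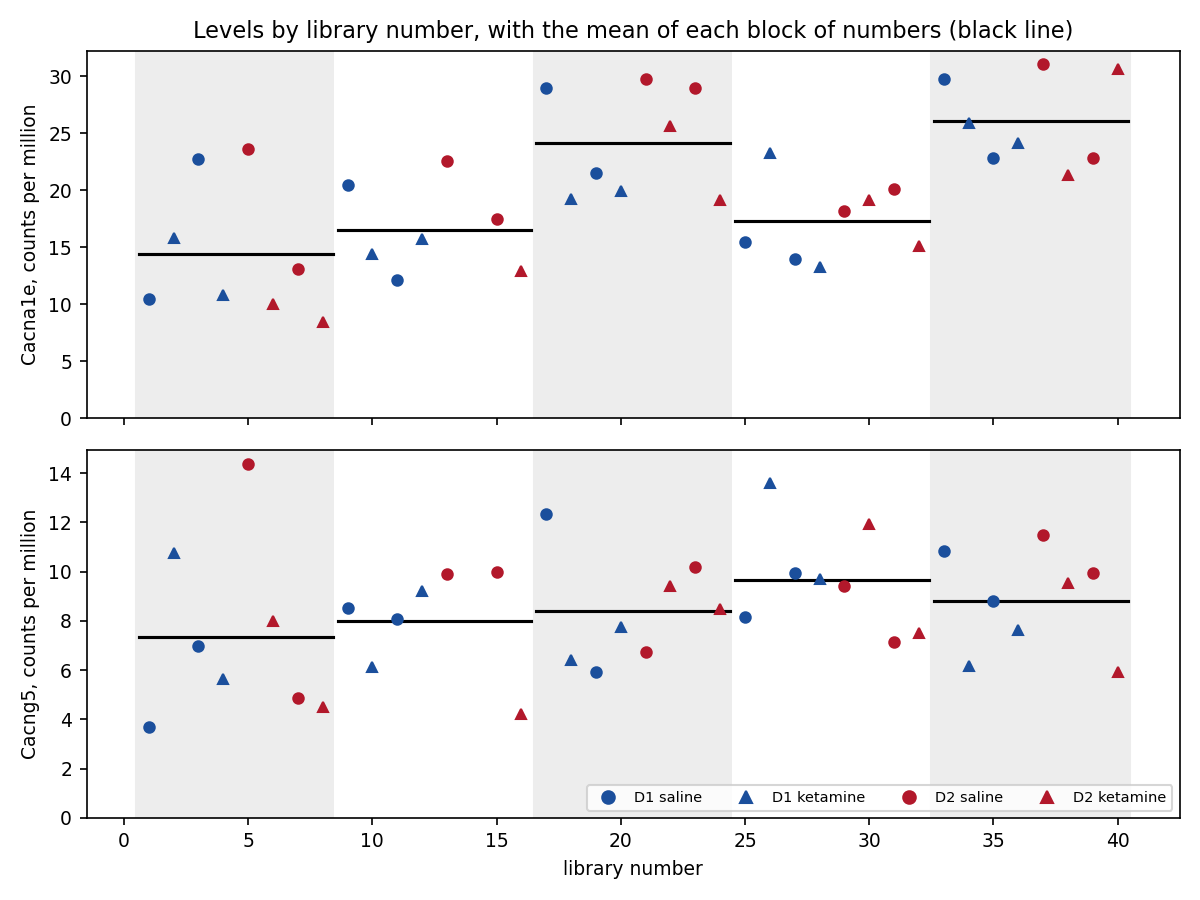
Levels of Cacna1e (top) and Cacng5 (bottom) in CPM against library number; circles are saline and triangles ketamine libraries, blue is D1 and red D2, shading separates the 5 blocks, and black lines give block means. The Cacna1e lines for libraries 17 to 24 (24.1) and 33 to 40 (26.1) stand above the other 3 (14.4 to 17.3), while those of Cacng5 lie between 7.35 and 9.68.

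With blocks in place of surrogate variables the groups are compared within blocks. For ketamine against saline, the standard error of Cacna1e was then smaller in both D2 comparisons and larger in both D1 comparisons, at 0.20 against 0.08 in D1 proestrus and 0.19 against 0.14 in D1 diestrus. In D2 libraries after proestrus ketamine it stood 0.47 lower than after saline (standard error 0.198, unadjusted p = 0.0521, adjusted p = 0.551). After diestrus ketamine it stood 0.36 lower (standard error 0.145, unadjusted p = 0.0316, adjusted p = 0.951). Paired within blocks, the D2 ketamine library had less Cacna1e than the saline library of the same stage in 7 of 9 pairs (mean log2 difference -0.39 ± 0.46 SD). The pairs that ran the other way were libraries 29 and 30, at 18.2 and 19.1 CPM, and libraries 39 and 40, at 22.8 and 30.6 CPM. In D1 libraries 6 of 10 such pairs were lower (-0.09 ± 0.52). A fit over all D2 libraries with blocks, added after these pairs were seen, gave -0.42 for Cacna1e (standard error 0.130, 95% interval -0.70 to -0.15, unadjusted p = 0.00510, adjusted p = 0.306), against -0.14 (standard error 0.231, adjusted p = 1.00) with 2 surrogate variables.

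In the same within-block pairs, D2 proestrus saline libraries had more Cacna1e than D1 proestrus saline libraries in 5 of 5 pairs, by 0.04 to 1.14 on the log2 scale, with a fitted value of 0.32 (standard error 0.165, adjusted p = 0.328, 7.02% of genes called). Cacng5 was higher in 4 of 5 of these pairs, by 0.30 ± 0.96, the widest scatter of the cell type comparisons. Elsewhere Cacna1e was higher in D2 in 3 of 5 pairs of diestrus saline, 1 of 4 of proestrus ketamine and 2 of 5 of diestrus ketamine. Over all 19 pairs of cell types Cacna1e was higher in D2 in 11 and Cacng5 in 10. For proestrus against diestrus in D2 ketamine libraries, Cacng5 was higher in 4 of 4 pairs (0.55 ± 0.28), with a fitted 0.58 (standard error 0.156, unadjusted p = 0.00692, adjusted p = 0.999). These are the libraries of the largest Cacng5 difference given above, so the pairs add no separate support for it. Over all 19 pairs of stages Cacng5 was higher in proestrus in 12 and Cacna1e in 14.

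Between libraries of 1 group the levels of Cacna1e and Cacng5 went together to a moderate degree. Over the deviations of 39 libraries from their group means, Pearson's r was 0.43 (permutation p = 0.00627) and Spearman's rho 0.33 (permutation p = 0.0389), and this was the only relation between measures tested. Without libraries 1 and 40, which lay farthest from the median of Cacna1e, r was 0.36 (permutation p = 0.0273) and rho 0.30 (permutation p = 0.0744), so the rank correlation rested in part on them. Within blocks, r was 0.61 in libraries 1 to 8, 0.44 in 9 to 16, 0.60 in 17 to 24, 0.52 in 25 to 32 and -0.11 in 33 to 40. After both group and block means were removed it was 0.48. All values come from the same libraries and share their depth and scaling. By correlation of deviations, Cacng5 ranked 2025 among the 14128 other genes for Cacna1e, and Cacna1e ranked 1024 for Cacng5. Many other genes thus followed each of them more closely, so the correlation was not particular to this pair.

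**Figure D4:**
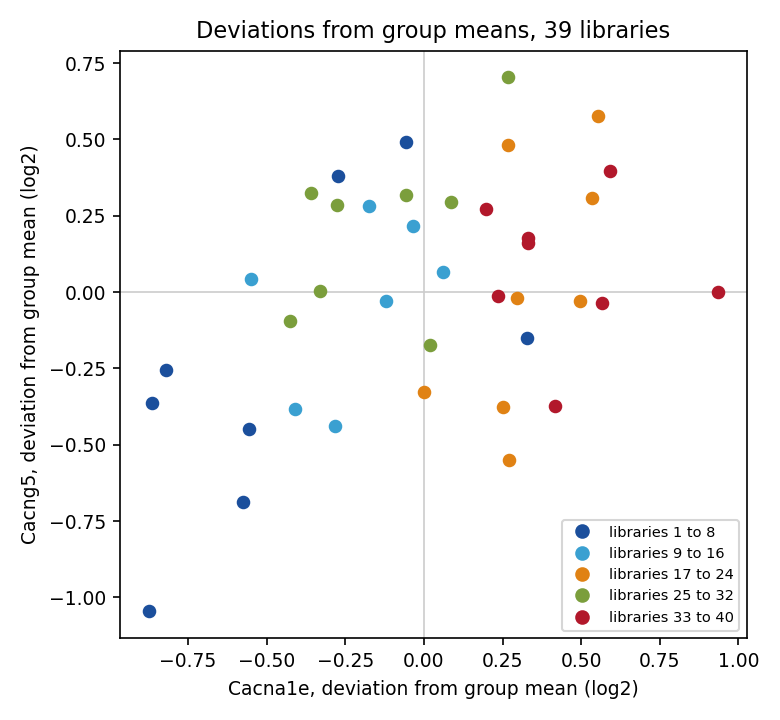
Deviation of each of 39 libraries from its group mean in log2 CPM, Cacna1e on the horizontal and Cacng5 on the vertical axis, coloured by block of library numbers. The points rise together (r = 0.43), and libraries 33 to 40 (red) lie to the right of 0 with Cacng5 on both sides of it.

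Many genes varied over the libraries as Cacna1e did, and few as Cacng5 did. Of 14128 other genes tested, 327 (2.31%) had a correlation above 0.8 with the deviations of Cacna1e and 8 (0.0566%) with those of Cacng5. The 5 genes most like Cacna1e in log2 level over 39 libraries had r between 0.934 and 0.946, led by ENSRNOG00000052840 and ENSRNOG00000022635, and the sources used here pair none of the 5 with a symbol. Those most like Cacng5 had r between 0.777 and 0.843, led by ENSRNOG00000050317, and 1 of them had a symbol. It was Atp2a2, the calcium pump of the endoplasmic reticulum (r = 0.777, and 0.784 after group means were removed).

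Among the 1593 other genes with a symbol, a list looked up after these values were seen, Cacna1e was most like Gsk3b, a serine/threonine kinase (r = 0.926), and Cplx2, which encodes complexin of the presynaptic release machinery (r = 0.925). Next came Stxbp5l, a tomosyn gene of the same machinery (0.898), Rc3h1, an RNA-binding protein gene (0.879), and Prkca, a calcium-dependent protein kinase C gene (0.870). After group and block means were removed these 5 correlations were still between 0.785 and 0.880, and all 5 genes also differed between blocks (adjusted p between 0.000353 and 0.00839). For Cacng5 the next after Atp2a2 were Abcb9 (0.721), Sobp (0.708), Rph3a, a Rab effector of synaptic vesicles (0.697), and Adarb1, an RNA-editing enzyme that acts on AMPA receptor transcripts (0.692). None of these passed the test of blocks (adjusted p between 0.436 and 0.943).

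Of the 26 voltage-gated calcium channel subunit genes listed, 4 could be paired, and the others beside these genes were Cacng4 and Cacng1. In the RefSeq annotation of the assembly GRCr8 they are the closest protein-coding neighbours of Cacng5 on one side. Cacng4, another regulator of AMPA receptors, stood at 143 ± 10.7 CPM in D1 and 152 ± 10.2 CPM in D2 saline libraries (SD, n = 10 each), and their fitted log2 difference was 0.09 (standard error 0.0422, adjusted p = 0.142). Its coefficient of variation was 9.11%, against a median of 6.99% among the genes closest to it in abundance, of which 75.6% varied less. Its deviations had r = -0.12 with those of Cacng5. Cacng1, the gamma subunit of the skeletal muscle channel, stood at 0.737 ± 0.377 and 0.857 ± 0.457 CPM (adjusted p = 0.728), near the limit of detection with at most 37 counts. So 0 of the 4 paired subunit genes, against 28.8% of all genes, were called between cell types in saline libraries with edgeR, Cacng4 being the one with an unadjusted p under 0.05.

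Markers of other cells varied with the genes to differing degrees and in either direction, and their part in the results was not tested. The 6 glial and vascular markers reported here, of 19 listed (Gja1, Gfap, Mog, Pdgfra, Aif1 and Flt1) summed to between 41.4 and 65.6 CPM in D1 groups and between 52.7 and 153 CPM in D2 groups, and none was at 0 in any library. In saline libraries 3 of the 6 were higher in D2 (Flt1, Gja1 and Mog, by 0.51 to 0.82 on the log2 scale) and none was lower. Of all 13689 genes tested there, 2005 were called higher and 1936 lower. All 6 had negative correlations with the deviations of both genes, from -0.26 to -0.52 with Cacna1e and from -0.19 to -0.54 with Cacng5. After block means were also removed, these ran from -0.098 (Flt1) to -0.53 (Aif1) with Cacna1e. With Cacng5 they then ran from -0.090 (Aif1) to -0.50 (Gja1). Nos1, a marker of an interneuron class, had r = 0.60 with Cacna1e and 0.61 with Cacng5. Sst, another interneuron marker, had -0.12 and 0.50. Both interneuron markers were lower in D2 than in D1 saline libraries, Nos1 at 9.63 ± 2.96 against 33.2 ± 15.9 CPM (adjusted p = 9.13e-07) and Sst at 139 ± 54.1 against 414 ± 150 CPM (adjusted p = 6.20e-06). In a pull-down from tissue, fewer tagged cells of a type and less RNA per cell cannot be told apart.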

How the data were processed

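Stranded poly(A) libraries of immunoprecipitated polyribosomal RNA were sequenced from 39 rats. Per the submitters' processing notes and the study's methods, the authors trimmed reads with fastp 0.23.4, checked them with FastQC 0.12.1 and quantified transcripts with Salmon 1.10.2 on mRatBN7.2, correcting for GC and sequence biases, and the notes also name DESeq2 1.42.1. The deposited table holds expected counts per gene, summed from transcripts with tximport by the authors and held as whole numbers. Counts split by a model between similar transcripts carry that uncertainty. Gene symbols came from the identifier and symbol columns of the authors' tables, whose fold changes and p-values were not used, and 1966 identifiers were paired.

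Genes were filtered with filterByExpr (minimum count 10), scaled by TMM and tested in each of 20 contrasts by edgeR's (4.0.16) quasi-likelihood test with 2 surrogate variables (sva 3.50.0), over the libraries compared, at an adjusted p of 0.1. Levels are CPM and log2 levels use a pseudocount of 0.5. Permutation tests of 2 groups were exact, and correlations used 100000 draws. The scripts were tested on simulated data. The p-values of fits with surrogate variables measure the spread between rats that those variables leave. The surrogate variables were estimated from the same libraries. The exact permutation tests use none. The members, the gene lists and the rules for named genes (the listed genes past the threshold between cell types in saline libraries, close relatives, and the 5 genes most alike) were chosen with earlier results of these data known, and the pooled contrasts and the test of blocks were added after seeing the data. Alternatives were no or 1 surrogate variable, DESeq2 (1.42.0), other size factors and filters, blocks of 8 library numbers, a single model and each library left out. 0 columns were left unmapped. Another marker gene is not reported here.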

Additional observations from a re-analysis of the deposited data

How the results depend on the processing

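Of 356 values of Cacna1e and Cacng5 in the 20 contrasts under 9 other settings, 2 passed the threshold and 44 changed sign. The cause of these changes was not tested. Passing were Cacna1e in D2 against D1 over all libraries with at least 10 counts required in every library (0.12, adjusted p = 0.0576) and Cacng5 in D2 against D1 in proestrus ketamine with no filter (0.48, adjusted p = 0.0396). A change of sign in D2 against D1 concerned only Cacna1e. It was -0.0072 in proestrus saline and -0.15 in diestrus saline with a single model of all 39 libraries. In proestrus ketamine it was -0.091 with the single model, -0.18 with blocks of library numbers, -0.043 with no surrogate variable and -0.050 with DESeq2 and no surrogate variable. In diestrus ketamine it was -0.044 with the single model and -0.020 with blocks or with no filter.

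For ketamine against saline in D1 proestrus, Cacna1e was at -0.14 in the single model, -0.035 with blocks, -0.090 with no surrogate variable and -0.095 with DESeq2 and none. It was at -0.0099 with 1 surrogate variable and -0.018 with the stricter filter. The plain difference of its mean log2 levels was 0.010 with CPM by total counts, against -0.024 with CPM scaled by TMM. Cacng5 was there at -0.011, -0.012, -0.015 and -0.018 with the single model, blocks, no surrogate variable and DESeq2 with none. In D1 diestrus Cacng5 was at 0.013, 0.0053, 0.0065 and 0.0089 under the same 4 and 0.0028 with 1 surrogate variable. Over all D1 libraries it was -0.0057 with blocks and -0.0054 with no surrogate variable, both added after seeing the data. In D2 diestrus Cacna1e was at 0.020 with the stricter filter.

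For proestrus against diestrus in D1 saline, Cacna1e was at 0.22, 0.14, 0.18 and 0.18 under the single model, blocks, no surrogate variable and DESeq2 with none, and 0.039 with 1 surrogate variable. Cacng5 was at 0.14, 0.064, 0.13 and 0.14 under the first 4. In D2 ketamine Cacna1e was at -0.13 with the stricter filter and -0.0088 with DESeq2 and 2 surrogate variables. The interaction of ketamine with cycle in D1 for Cacng5 was -0.024, -0.019, -0.028 and -0.026 under the same 4, and that of ketamine with cell type in diestrus for Cacna1e was -0.15 with blocks, -0.092 with no surrogate variable in edgeR or DESeq2 and -0.025 with 1.

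With each of 39 libraries left out in turn, 5 of 508 values passed the threshold and 46 changed sign. For Cacna1e the values of D2 against D1 ran from -0.14 to 0.18 in diestrus ketamine and from -0.042 to 0.30 in proestrus ketamine, those of ketamine against saline from -0.12 to 0.14 in D1 proestrus and from -0.57 to 0.16 in D2 diestrus, and those of proestrus against diestrus from -0.25 to 0.22 in D1 saline and from -0.26 to 0.62 in D2 ketamine. Its interactions ran from -0.42 to 0.12 (cell type with cycle, ketamine), -0.37 to 0.30 (ketamine with cell type, diestrus), -0.16 to 0.31 (ketamine with cycle, D1) and -0.42 to 0.092 (ketamine with cycle, D2). For Cacng5, D2 against D1 ran from 0.054 to 0.43 in all saline libraries, from -0.55 to -0.26 in diestrus ketamine and from 0.038 to 0.43 in proestrus ketamine. Ketamine against saline ran from -0.090 to 0.10 in D1 diestrus and from -0.048 to 0.25 in D1 proestrus, proestrus against diestrus from -0.022 to 0.21 in D1 ketamine and from -0.26 to 0.17 in D1 saline, and the interaction of ketamine with cycle in D1 from -0.10 to 0.27.

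The call of Cacna1e between blocks of library numbers held with DESeq2's likelihood ratio test (adjusted p = 9.16e-08) and its size factors. The number of genes called moved more than that of these subunits. With blocks, D2 against D1 called 1348 genes in diestrus saline, 671 in diestrus ketamine and 394 in proestrus ketamine, against 546, 1705 and 748 with 2 surrogate variables, and with no surrogate variable it called 1076, 611 and 447. The single model called 854 in diestrus saline. DESeq2 called 16 and 10 genes for ketamine in D1 proestrus and diestrus, against 1 and 3. At 24 to 403 counts per library, Cacng5 had the wider counting error, and the shallow library 39 supplied its lowest count. The labels give no library number to more than 1 group, so the blocks of consecutive numbers were the only pairing tried.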
